A study of Mus musculus with 46 samples.

Results

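The 39 genes described here encode the chaperones and folding enzymes of the endoplasmic reticulum (ER) and the sensors, transcription factors and target genes of the unfolded protein response. They were chosen by symbol: 16 ER chaperones and folding enzymes, 7 sensors and transcription factors, 7 genes of ER-associated degradation, 3 genes of the translocon and 6 outputs of the integrated stress response. Every one of the 39 was found in each of the 3 deposited expression tables, which list 15695, 15285 and 19930 genes.

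The study used PLX3397, an inhibitor of CSF1R, whose signal microglia need to survive, given at 600 ppm in chow to male C57BL/6 mice (2 months old in the sorted cell experiments), and then followed the myeloid cells that return after the inhibitor is withdrawn. The first table holds bulk tissue of the microdissected subventricular zone (SVZ) from control mice, mice on PLX3397 for 14 days and mice that were on PLX3397 for 14 days and then off it for 5 days, with 5 libraries in each group. The second holds CD11b+CD45int cells sorted from brain hemispheres: microglia of control mice, given vehicle in place of PLX3397, with no LPS (0 hr, 3 libraries), 6 hr after LPS (5 libraries) and 24 hr after LPS (4 libraries), and white matter (WM) repopulating cells, which filled the brain over 28 days after 14 days of PLX3397, at the same 3 times (4 libraries each). LPS, a bacterial cell wall lipid that activates innate immune cells, was injected into the peritoneum at 0.33 mg/kg. The third holds sorted CD11b+CD45int cells in 4 control libraries and in 3 libraries of GLOBAL repopulation, in which microglia returned for 28 days after 7 days of PLX3397. WM repopulating and GLOBAL repopulation name the course of treatment, since a CD11b+CD45int gate takes every cell in it whatever its origin. No allele, transgene or deletion is given for any group.

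The ER lumen is where secreted and membrane proteins fold, and the unfolded protein response adjusts its capacity to the load. Its sensors are the kinase and nuclease IRE1 (Ern1), which splices the mRNA of the transcription factor XBP1, the kinase PERK (Eif2ak3), which slows translation and favours translation of ATF4, and ATF6, which is cut free from the membrane to act on DNA. XBP1 and ATF6 are known to switch on chaperone genes such as Hspa5 (BiP), while ATF4 switches on genes of amino acid supply, such as Asns, and of stress feedback, such as Ddit3, Trib3, Chac1 and Ppp1r15a. Splicing of Xbp1, cleavage of ATF6 and phosphorylation are not visible in gene level values.

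The promoters of 32 of the 39 members had a window in the RefSeq table used here (GRCm38.p6, 250 bases before to 50 after the start). Windows were searched on both strands for the ER stress response element (ERSE, CCAAT, then 9 free bases, then CCACG), its short form (ATTGG, 1 free base, CCACG), the element TGACGTGG and the ATF4 element (TGATG, 1 free base, AA). The first 3 all hold CCACG or its complement, so that a single stretch could count for more than one of them. The ERSE was in 9 of the 32 member windows (28.1%) and in 37 of 27025 windows of all genes (0.137%). Of the chaperones with a window 7 of 13 (53.8%) held it, and Hsp90b1 held 2 copies. The short form was in 12 of 27025 genes (0.0444%), among them Dnajb11 and Herpud1. The ATF4 element was in 5 of 32 members (15.6%), namely Asns, Chac1, Trib3, Atf3 and Herpud1, against 1219 of all 27025 genes (4.51%) and 271 of the 9363 tested (2.89%). TGACGTGG was in 193 genes (0.714%) and in 0 of the 32. Hyou1, Manf, Hspa13, Atf6, Derl1, Sec61a1 and Ppp1r15b had no window. A match is a description of letters in these windows, not of binding.

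The 250 bases before the start of Hspa5, whose product BiP is the main Hsp70 chaperone of the ER and which had the highest mean level of all members in control microglia of the LPS table at 0 hr, are shown with its ERSE in capitals (chr2:34771840-34772089, GRCm38.p6, plus strand). The ERSE lies 47 bases before the start.
Hspa5: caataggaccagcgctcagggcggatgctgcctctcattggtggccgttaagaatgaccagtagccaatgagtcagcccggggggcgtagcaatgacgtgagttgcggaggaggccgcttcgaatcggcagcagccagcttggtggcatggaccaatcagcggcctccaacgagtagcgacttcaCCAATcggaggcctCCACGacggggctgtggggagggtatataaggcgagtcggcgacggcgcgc
The ERSE or short form of 5 chaperones and of Derl3, all of which rose in control microglia by 24 hr after LPS, are shown in the same build with 9 bases either side and the fixed letters in capitals, on the strand that reads in the order of the motif.
Hsp90b1 (chr10:86705629-86705665, minus strand): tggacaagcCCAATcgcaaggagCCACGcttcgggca
Calr (chr8:84847066-84847102, plus strand): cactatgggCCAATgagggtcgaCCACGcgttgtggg
Pdia6 (chr12:17266482-17266518, plus strand): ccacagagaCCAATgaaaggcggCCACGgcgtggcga
Creld2 (chr15:88819511-88819547, minus strand): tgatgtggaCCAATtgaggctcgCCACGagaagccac
Derl3 (chr10:75893233-75893269, minus strand): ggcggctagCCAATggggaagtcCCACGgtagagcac
Dnajb11 (chr16:22857843-22857871, plus strand, short form): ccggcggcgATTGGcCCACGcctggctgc
The ATF4 elements of 3 stress output genes that rose by 6 hr after LPS are shown in the same way.
Asns (chr6:7693216-7693241, minus strand): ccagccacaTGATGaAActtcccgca
Chac1 (chr2:119351040-119351065, minus strand): tggcaggagTGATGcAAcggcaggga
Trib3 (chr2:152344030-152344055, plus strand): ccgcccggcTGATGtAAacctgagct

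Values are FPKM, read fragments scaled to transcript length and library depth, as deposited. Differences are log2 fold changes of FPKM + 1 with their standard error (SE) from limma, and a gene is said to have risen or fallen where its Benjamini-Hochberg adjusted p over all genes tested in its table was under 0.05. All 39 members passed the filter on low values in both sorted cell tables, and 38 in SVZ tissue, where Atf3 did not. Depth, estimated from the steps of low FPKM values, was 4000000 to 9300000 reads in SVZ libraries, 4490000 to 8890000 in the LPS libraries and 2160000 to 5100000 in the GLOBAL libraries. The summed FPKM of 9 microglial markers was 12368 to 30270 over the LPS libraries and in SVZ tissue it was 247 to 345 in control, 13.4 to 16.98 on PLX3397 and 23.6 to 33.3 in recovery. Control replicate 1 of SVZ tissue held 21303 FPKM of 4 choroid plexus genes where the other 14 libraries held 14.05 to 125, GLOBAL control neutrophil genes ranged from 2116 to 22650, and in the LPS table control 6 hr replicate 2 and control 24 hr replicate 4 had the lowest correlations with their groups. For the main comparisons, counts of members past the threshold that rest on these libraries are given without them as well, except where 0 passed. Counts at an unadjusted p are given only with all libraries.

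In control microglia of the LPS table at 0 hr, the chaperone Hspa5 had the highest level of all members at 957 ± 114 FPKM (mean ± SD, n = 3, as for the levels that follow), followed by the disulfide isomerase Pdia3 at 744 ± 107, the membrane protein Herpud1 of ER-associated degradation at 385 ± 54.2 and the Hsp90 chaperone Hsp90b1 (GRP94) at 347 ± 9.02. The libraries of Hspa5 and Pdia3 overlap, as do those of Herpud1, Hsp90b1 and Atf3, the next in order at 315 ± 27.9, so these neighbours did not differ beyond their spread. At the other end stood the sensor Ern1 at 1.06 ± 0.351, Derl3 at 0.618 ± 0.885 and Chac1 at 0.221 ± 0.383, where 1 read was worth 0.0687 to 0.136 FPKM of Chac1 in the LPS table. Of the 3 sensors, Atf6 at 10.1 ± 2.07 and Eif2ak3 at 9.29 ± 1.81 differed by less than their spread and Ern1 was lowest. The transcription factor Xbp1 was at 258 ± 25.5 FPKM and Atf4 at 57.5 ± 6.25.

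Within 6 hr of LPS the outputs of the integrated stress response and Atf6 rose in control microglia, while 0 of 16 chaperones did. Of the 39 members 10 rose (25.6%) and 6 fell (15.4%), where 21.4% of all genes tested rose and 21.1% fell, so the share was near that of all genes and the pattern lay in which members moved. Among stress outputs 5 of 6 rose and 0 fell, with a median log2 fold change of 1.21. Among chaperones 2 of 16 fell. Without control 6 hr replicate 2 and control 24 hr replicate 4, which stand apart, 10 members rose and 9 fell, 3 of them chaperones, where 22.2% and 21.4% of all genes did.

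Asns, which makes asparagine, was at 1.31, 3.62 and 4.12 FPKM in the 3 control libraries without LPS and at 18.7, 12.9, 23.95, 15.3 and 13.8 in the 5 at 6 hr. All 5 libraries at 6 hr lay above all 3 without LPS (log2 fold change 2.21 ± 0.27 SE, adjusted p = 6.37e-07). Chac1, which degrades glutathione, was at 0.664, 0 and 0 without LPS and at 5.13, 4.59, 1.92, 3.73 and 2.56 at 6 hr. It was listed at 0 in 2 of the 3 libraries without LPS and the groups did not overlap (log2 fold change 1.90 ± 0.39 SE, adjusted p = 0.000419). No library without LPS, of either kind of cell, reached 1 FPKM of Chac1. It passed the filter on low values only through libraries after LPS, and its tests against 0 hr carry that limit. Trib3, a pseudokinase that feeds back on ATF4, was at 1.45, 1.35 and 0.76 and then 7.13, 7.79, 1.82, 3.94 and 3.17, with every library at 6 hr above those without LPS although 2 of the 5 stood far above the other 3 (log2 fold change 1.29 ± 0.38 SE, adjusted p = 0.00785). The stress metabolic regulator Sesn2 rose by 1.13 ± 0.38 (adjusted p = 0.0181), and Ppp1r15b, the constitutive partner of the phosphatase that reverses eIF2α phosphorylation, rose by 0.97 ± 0.16 (adjusted p = 3.67e-05). Ppp1r15a (GADD34), its inducible counterpart, was at 329, 277 and 260.4 without LPS and 222, 271, 252, 190.0 and 221 at 6 hr, and was the 1 stress output of the 6 that did not pass.

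The sensors and transcription factors split. Atf6 was at 8.97, 8.89 and 12.5 FPKM without LPS and at 33.05, 34.9, 22.4, 32.9 and 29.4 at 6 hr. Its groups did not overlap (log2 fold change 1.502 ± 0.16 SE, adjusted p = 7.81e-08). Xbp1 rose by 0.66 ± 0.15 and Atf4 by 0.69 ± 0.18. In the other direction, Atf3, an immediate early factor induced by ATF4 and by many other signals, was at 341, 320.1 and 285 without LPS and 203, 39.8, 114, 61.9 and 94.4 at 6 hr, so that the highest library at 6 hr lay below the lowest without LPS (log2 fold change -1.82 ± 0.31 SE, adjusted p = 4.14e-05). The PERK gene Eif2ak3 was lower (log2 fold change -0.90 ± 0.17 SE, adjusted p = 0.000205) and Ddit3 (CHOP), a factor of prolonged stress, fell by 0.62. The summed level of 9 genes known to respond to tissue dissociation, Atf3 not among them, was 9202 to 9568 FPKM without LPS and 3533 to 6458 at 6 hr; its part in the fall of Atf3 was not tested.

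Sdf2l1, a partner of ER Hsp40 chaperones, was the chaperone that moved furthest at 6 hr, from 254, 263 and 199.8 FPKM to 96.03, 95.1, 158, 90.9 and 97.5. Control 6 hr replicate 3 was the highest of its group and still lay below the 3 libraries without LPS (log2 fold change -1.17 ± 0.24 SE, adjusted p = 0.000422). The ER Hsp40 Dnajb9 (ERdj4) also fell, by 0.45 on the log2 scale. Hspa5 itself was at 1012, 1034 and 826 without LPS and 821, 1417, 1104, 795 and 918 at 6 hr, and these groups overlapped. Among degradation genes Edem1, a mannosidase-like lectin that hands glycoproteins to disposal, fell by 0.50 and was the only 1 of 7 past the threshold in either direction, and Sec61a1 and Sec61b, subunits of the channel through which proteins enter the ER, rose by 0.96 and 0.86. Herpud1 in control 6 hr replicate 2 was at 1946 FPKM, where the other 4 libraries were at 271 to 446.

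**Figure D1:**
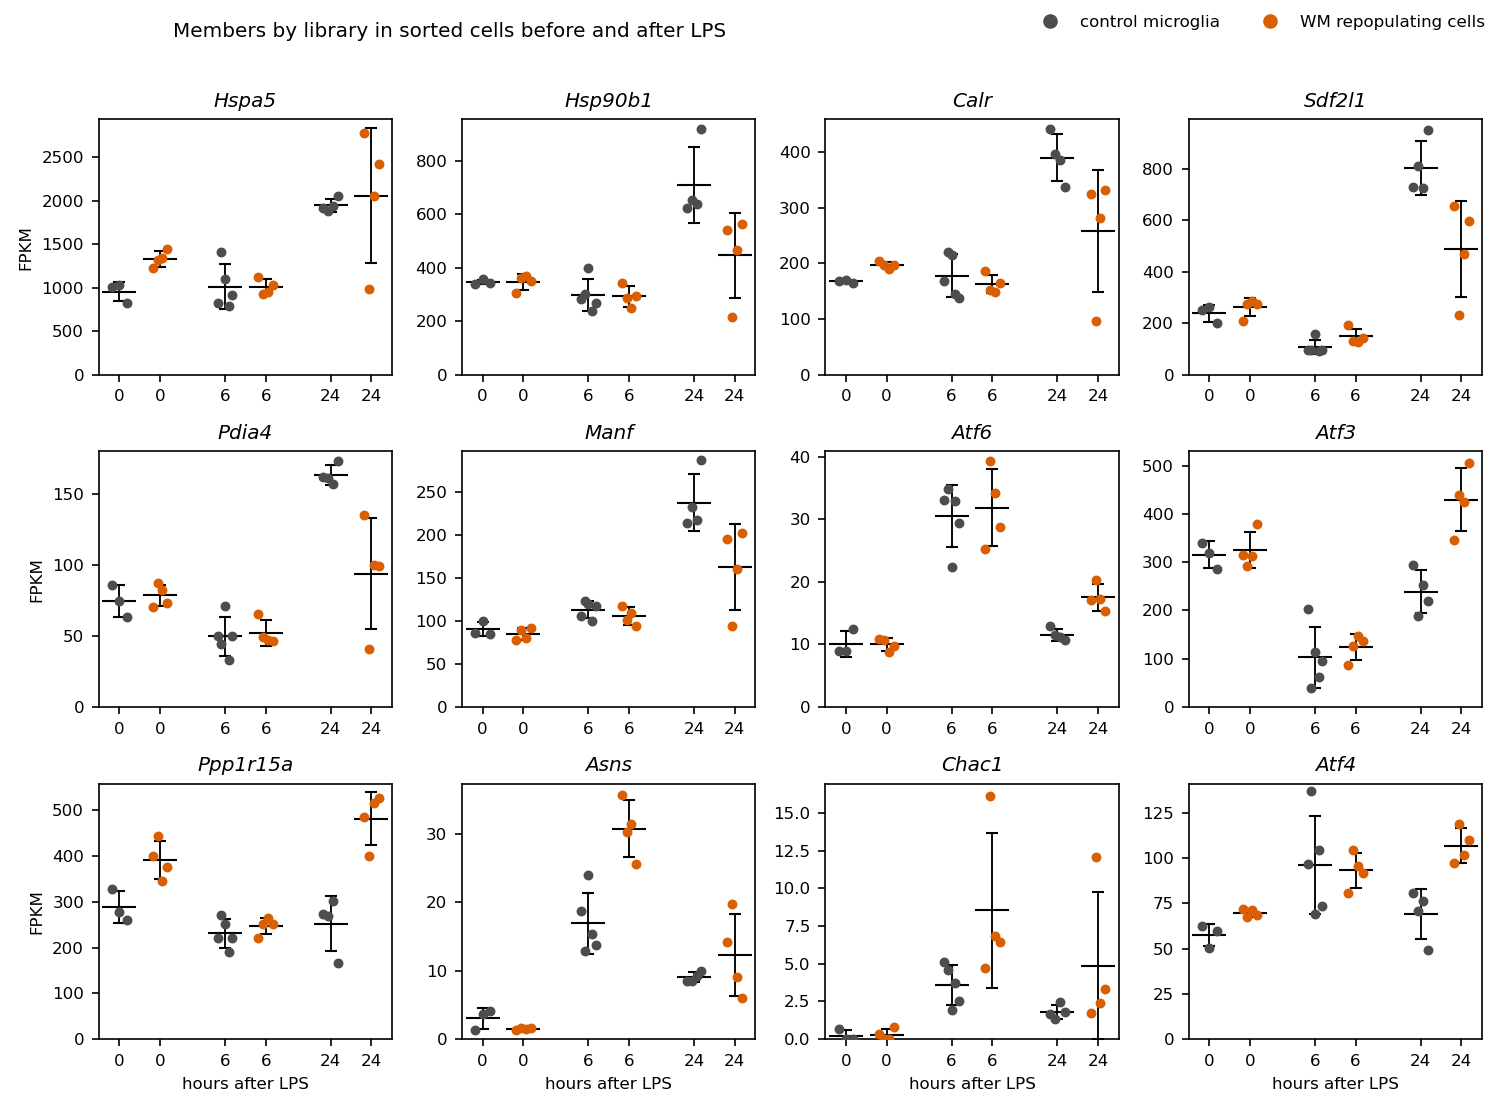
FPKM of 12 members in each sorted cell library (vertical axes, linear, starting at 0) by hours after LPS (0, 6 and 24 hr) in control microglia (grey) and WM repopulating cells (orange), with 1 point per library and bars at the mean ± SD of each group. Asns, Chac1 and Atf6 are highest at 6 hr in both kinds of cell, while Hspa5, Sdf2l1 and Calr are highest at 24 hr, where WM repopulating replicate 2 lies lowest of its group.

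By 24 hr the pattern had turned to the chaperones. In control microglia 18 members (46.2%) were above 0 hr and 0 below, where 12.1% of all genes had risen and 9.23% had fallen. Of the 18, 13 were chaperones (13 of 16), with a median log2 fold change of 0.96 over the 16 against 0.01 over all genes, and all 16 had a fold change above 0. Of the rest 2 were degradation genes, 1 a translocon gene and 2 stress outputs, and 0 of the 7 sensors and transcription factors passed. Without the 2 control libraries that stand apart 21 members rose, again 13 of them chaperones, and 0 fell, where 13% and 9.68% of all genes did.

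Sdf2l1 was at 728, 812, 726 and 949.6 FPKM at 24 hr, against 254, 263 and 199.8 without LPS, and no library of one group reached the other (log2 fold change 1.75 ± 0.25 SE, adjusted p = 2.71e-05). Hspa5 was at 1917, 1879, 1941 and 2058 at 24 hr, above every control library at 0 and 6 hr (log2 fold change 1.03 ± 0.24 SE, adjusted p = 0.00308). Calr (calreticulin), the lectin chaperone of newly made glycoproteins, was at 168, 170.2 and 165 and then 441, 395, 386 and 337, also without overlap (log2 fold change 1.21 ± 0.27 SE, adjusted p = 0.00228). The secreted ER protein Manf was at 85.99, 99.7 and 84.9 and then 214, 232, 217 and 286 (log2 fold change 1.38 ± 0.18 SE, adjusted p = 1.01e-05). These 4 chaperones all lay in separate ranges at 0 and 24 hr. Creld2, a disulfide isomerase induced by ER stress, rose by 1.35 ± 0.28 (adjusted p = 0.00124), the disulfide isomerase Pdia4 by 1.13 ± 0.26 (adjusted p = 0.00332) and Hyou1 (GRP170), the nucleotide exchange factor of BiP, by 1.49 ± 0.35 (adjusted p = 0.00336). Hsp90b1 (1.01), Pdia3 (0.92), Pdia6 (0.91), the cochaperones Dnajb11 (0.89) and Dnajc3 (0.80) and the disulfide isomerase P4hb (0.49) made up the 13. The 3 chaperones that did not pass were Canx (0.46), the membrane-bound relative of calreticulin, Dnajb9 (0.37) and the Hsp70 relative Hspa13 (0.06).

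The 24 hr rise of Hyou1 was uneven, with 18.9, 17.9, 19.7 and 47.3 FPKM in the 4 libraries against 9.37, 9.86 and 5.06 at 0 hr, since replicate 4 stood far above the other 3. Without that replicate and control 6 hr replicate 2, which stand apart, its log2 fold change was 1.17 ± 0.33 SE (adjusted p = 0.0122). Asns remained above its 0 hr level at 8.54, 8.47, 9.28 and 9.94 FPKM (log2 fold change 1.40 ± 0.28 SE, adjusted p = 0.000974). Against 6 hr it differed by -0.80 on the log2 scale. Chac1 was at 1.67, 1.32, 2.47 and 1.77 (log2 fold change 1.23 ± 0.41 SE, adjusted p = 0.0351). Derl2 (0.55), of the same family as Derl3, and Sec61b (0.76) rose too. Derl3, a channel-like protein of ER-associated degradation, was at 1.07, 3.78, 2.38 and 1.35 FPKM against 0.223, 0 and 1.63; its groups overlapped and its adjusted p of 0.0441 for a log2 fold change of 1.01 ± 0.36 stood at the threshold.

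Set against 6 hr, control microglia at 24 hr showed 21 members higher (53.8%) and 7 lower (17.9%), where 15% of all genes were higher and 13.3% lower. Chaperones were higher in 14 of 16, with a median of 1.02, and degradation genes in 4 of 7. Without the 2 control libraries that stand apart 24 members were higher, 14 of them chaperones and 6 degradation genes, and 3 lower, where 13.1% and 10.5% of all genes were. Sdf2l1 differed most (log2 fold change 2.91 ± 0.22 SE, adjusted p = 5.26e-09), followed by Pdia4 (log2 fold change 1.74 ± 0.23 SE, adjusted p = 6.86e-06). Pdia3 was at 501, 620.0, 572, 502 and 545 FPKM at 6 hr and 1263, 1374, 1361 and 1601 at 24 hr, with no overlap (log2 fold change 1.35 ± 0.17 SE, adjusted p = 4.76e-06). Hsp90b1 was higher by 1.25 ± 0.21, Creld2 by 1.25 ± 0.25, Calr by 1.15 ± 0.24 and Pdia6, another disulfide isomerase, by 1.11 ± 0.20. Atf6 went the other way and was back near its 0 hr level at 12.9, 11.4, 11.2 and 10.7 FPKM (log2 fold change -1.32 ± 0.15 SE, adjusted p = 8.45e-07). Atf3 had risen again (log2 fold change 1.41 ± 0.28 SE, adjusted p = 0.000614). Sesn2 (-0.92), Asns (-0.80), Ppp1r15b (-0.58), Sec61a1 (-0.48), Atf4 (-0.45) and Xbp1 (-0.37) were the others lower at 24 hr than at 6 hr. The 7 sensors and transcription factors were thus split, with 3 higher (Atf3, Ddit3 at 0.85 ± 0.16 and Eif2ak3 at 0.62 ± 0.16) and 3 lower, and of the 7 members lower only Asns, Ppp1r15b and Atf6 passed without the 2 control libraries that stand apart. In these sorted bulk libraries a change in RNA per cell and a change in which cells the gate caught cannot be told apart: the summed level of 7 B and plasma cell genes, whose cells are rich in ER chaperones, was 402 to 546 FPKM at 0 hr, 45.4 to 228 at 6 hr and 149 to 254 at 24 hr in controls, and that of 8 neutrophil genes 1783 to 8805, 908 to 5699 and 6328 to 15236. Their part in these results was not tested.

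**Figure D2:**
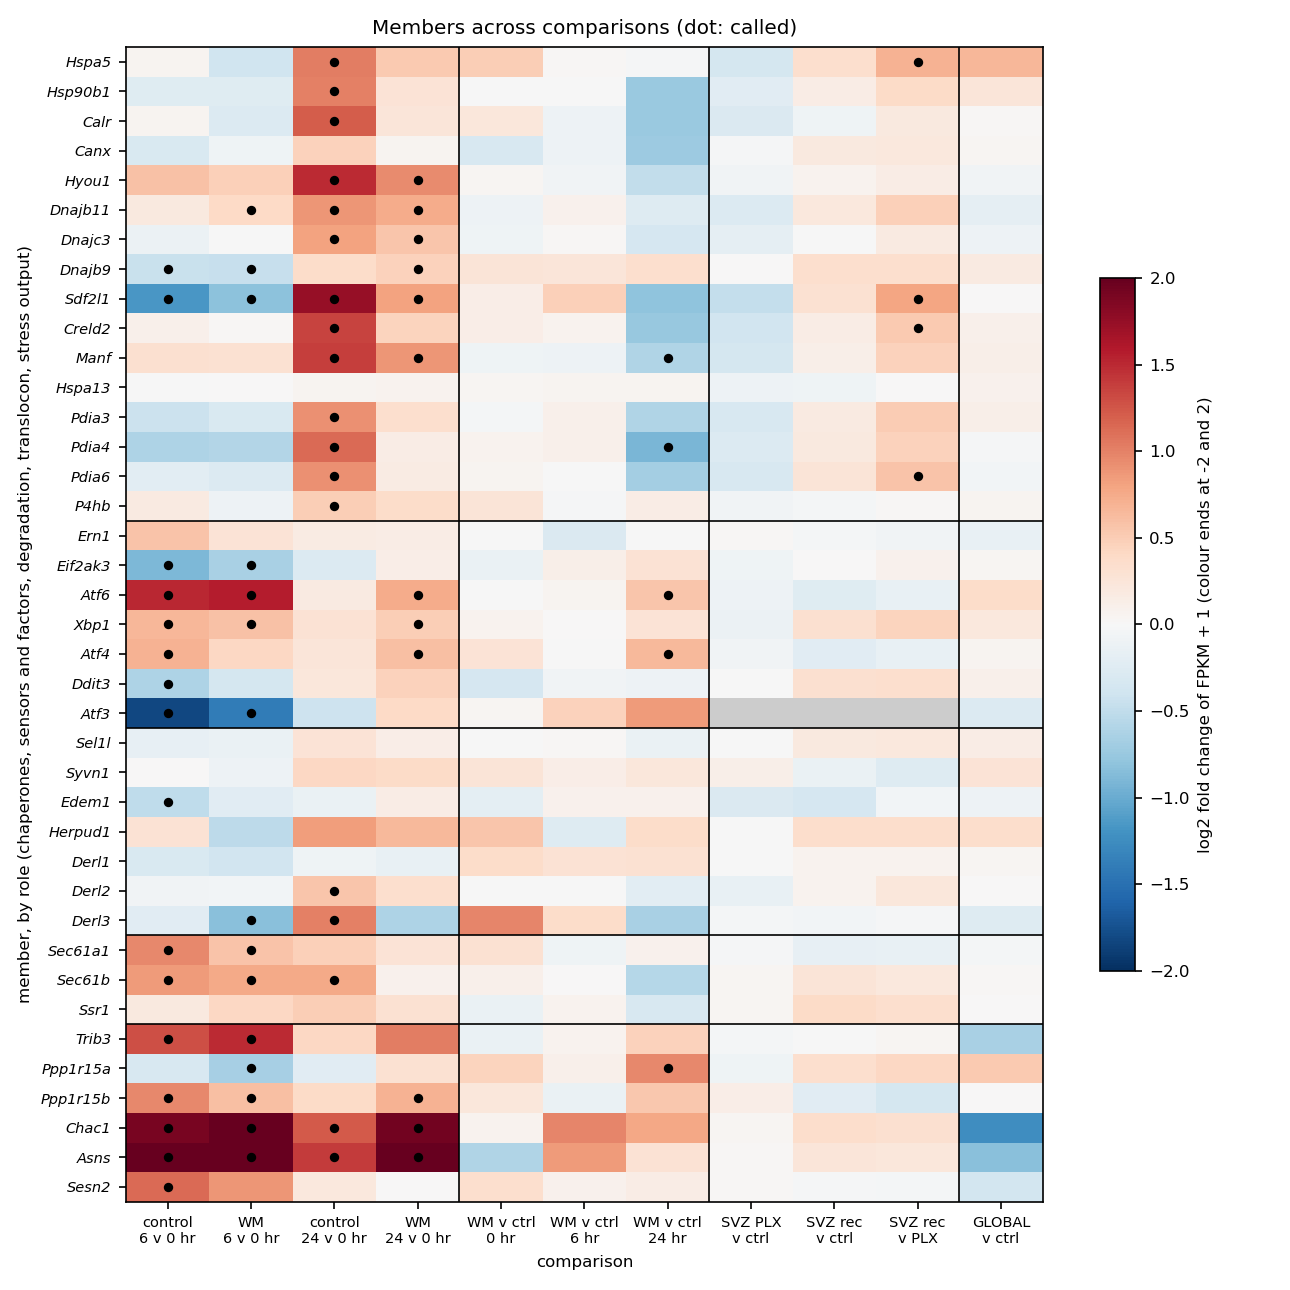
Log2 fold change of FPKM + 1 (colour, blue lower and red higher, from -2 to 2) of the 39 members (vertical, ordered by role) in comparisons between groups (horizontal). A dot marks a Benjamini-Hochberg adjusted p under 0.05 and grey a gene not tested. Comparisons of 24 hr against 6 hr and between the responses are not drawn. In the columns of 24 hr against 0 hr, 13 of the 16 chaperone rows carry a dot in control microglia and 6 in WM repopulating cells.

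In WM repopulating cells at 6 hr the stress outputs Asns, Chac1 and Trib3 and the sensor Atf6 rose furthest among the members, 9 of which were above 0 hr (23.1%) and 6 below (15.4%), where 19.3% and 19.5% of all genes rose and fell. With only these 2 groups in the fit 26 members passed, 14 higher and 12 lower, where 21% and 21.9% of all genes did. Of the 6 stress outputs 4 rose and 1, Ppp1r15a, fell. Asns led, from 1.27, 1.64, 1.53 and 1.60 FPKM at 0 hr to 35.7, 30.4, 31.4 and 25.6 at 6 hr, which left a wide gap between the groups (log2 fold change 3.65 ± 0.26 SE, adjusted p = 3.39e-10). Chac1 was at 0.346, 0, 0 and 0.818 and then 4.74, 16.1, 6.86 and 6.47, highest in replicate 2 (log2 fold change 2.80 ± 0.38 SE, adjusted p = 3.26e-06). Here too it entered the genes tested only through libraries after LPS. Atf6 was at 10.9, 10.7, 8.71 and 9.70 and then 25.2, 39.3, 34.2 and 28.8 (log2 fold change 1.56 ± 0.16 SE, adjusted p = 3.24e-08). All 3 were without overlap. Trib3 rose by 1.497 ± 0.37 and Sec61b by 0.77 ± 0.18, while Atf3 fell by 1.40, Sdf2l1 by 0.82, Ppp1r15a by 0.66 and Eif2ak3 by 0.65 on the log2 scale. Derl3 also passed as lower (log2 fold change -0.83 ± 0.33 SE, adjusted p = 0.0482), with 3.25, 1.19, 1.83 and 1.73 FPKM at 0 hr and 1.82, 0.578, 0 and 0.603 at 6 hr, groups that overlapped in 1 library. Xbp1 (0.59), Ppp1r15b (0.60), Sec61a1 (0.57) and Dnajb11 (0.40) also rose and Dnajb9 fell by 0.46.

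At 24 hr in WM repopulating cells 12 members were above 0 hr (30.8%) and 0 below, where 10.5% and 8.29% of all genes rose and fell. Of the 16 chaperones 6 had risen, with a median log2 fold change of 0.41. This count turns on 1 library. Hspa5 was at 2774, 986, 2051 and 2425 FPKM at 24 hr against 1227, 1322, 1344 and 1452 at 0 hr, with replicate 2 below the whole 0 hr group and the other 3 above it. Calr was at 324, 96.9, 281 and 331 against 204, 196, 189.7 and 197, again with replicate 2 the lowest of all 8. Sdf2l1 was at 655, 233, 471 and 598 against 211, 277, 287 and 277 (log2 fold change 0.80 ± 0.23 SE, adjusted p = 0.0184). In replicate 2 only 6 of the 16 chaperones were above the 0 hr mean of their group (median difference -0.31 on the log2 scale), whereas the other 3 libraries had 15 or 16 of 16 above it (medians 0.47 to 0.79) and the 4 control libraries at 24 hr 15 or 16 (medians 0.93 to 1.11).

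Without WM repopulating 24 hr replicate 2, 20 members were above 0 hr and 0 below, 12 of them chaperones, with a chaperone median of 0.63, where 9.08% of all genes were above and 7.05% below. The same library had the highest Asns (19.8 FPKM), Chac1 (12.1), Trib3 (6.45), Atf4 (119) and Atf6 (20.4) of its group, and the lowest Hspa5, Hsp90b1, Calr, Sdf2l1, Manf, Pdia4, Hyou1 and Ppp1r15a (399). Its 10 LPS response genes summed to 7745 FPKM, where the other 3 libraries had 5305 to 6553, and its 9 dissociation response genes to 11486, the highest of the group. Whether these bear on its chaperone levels was not tested.

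Asns (log2 fold change 2.29 ± 0.26 SE, adjusted p = 1.59e-06) and Chac1 (log2 fold change 1.93 ± 0.38 SE, adjusted p = 0.000849) rose furthest from 0 to 24 hr in WM repopulating cells. Manf (0.88 ± 0.17), Dnajb11 (ERdj3, a cochaperone of BiP, 0.74 ± 0.15), Dnajc3 (an ER cochaperone known as p58IPK, 0.55 ± 0.15) and Hyou1 (0.95 ± 0.32) were the other chaperones named by size. Atf6 (0.75 ± 0.16), Atf4 (0.61 ± 0.17) and Xbp1 (0.50 ± 0.15) rose among sensors and transcription factors, and Ppp1r15b (0.69 ± 0.16) among stress outputs. Against 6 hr, 14 members were higher at 24 hr (35.9%) and 3 lower (7.69%), where 8.19% and 7.50% of all genes were higher and lower. Of these 14, 8 were chaperones, and without replicate 2 of 24 hr 21 members were higher, 14 of them chaperones, where 7.43% of all genes were. Hspa5 (0.93 ± 0.22), Dnajb9 (0.92 ± 0.13), Sdf2l1 (1.62 ± 0.23), Atf3 (1.79 ± 0.30), Ddit3 (0.82 ± 0.17) and Ppp1r15a (0.96 ± 0.16) were higher than at 6 hr, while Asns (-1.37 ± 0.26), Atf6 (-0.82 ± 0.16) and Sec61b (-0.67) were lower. Herpud1 rose from 403, 359, 451 and 349 FPKM at 6 hr to 1047, 627, 843 and 1078 (log2 fold change 1.18 ± 0.38 SE, adjusted p = 0.0368), with no overlap. The count of 17 fell to 11 without WM repopulating 24 hr replicate 1, and likewise without 6 hr replicate 2 or replicate 4.

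**Figure D3:**
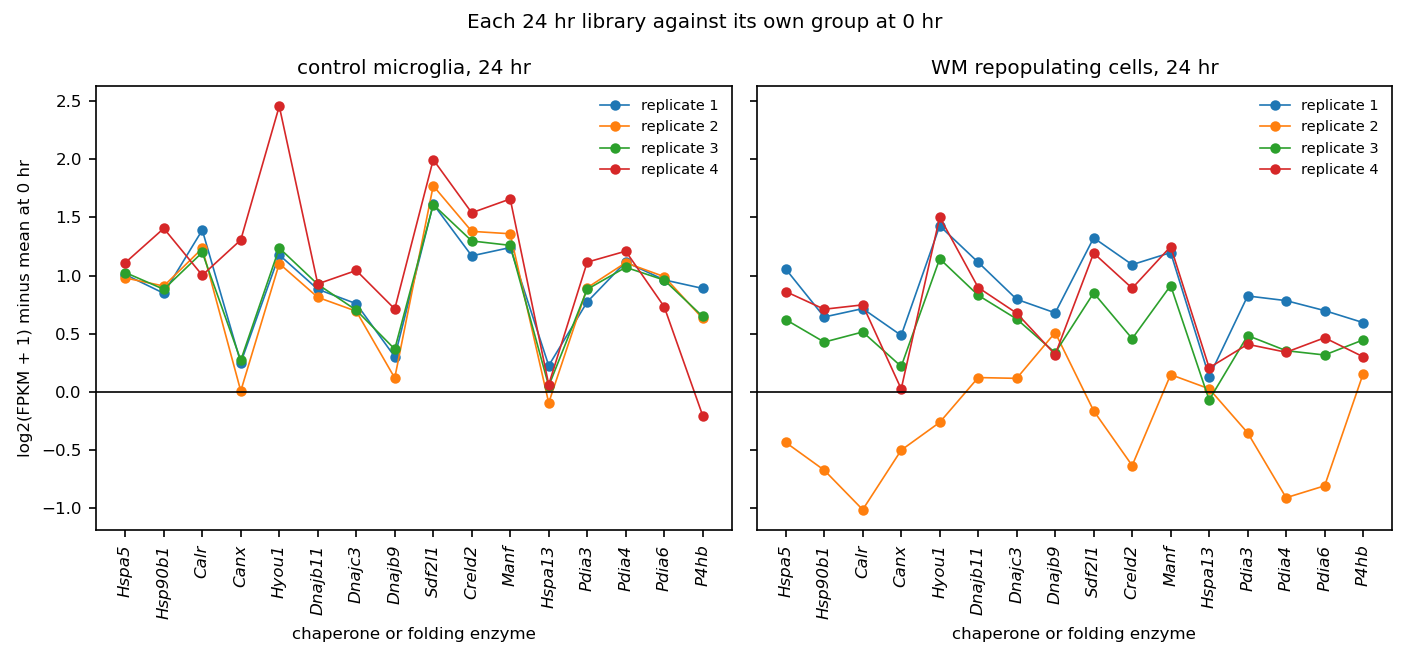
Difference of each 24 hr library from the 0 hr mean of its own kind of cell on the log2(FPKM + 1) scale (vertical axis) for the 16 chaperones (horizontal axis). Control microglia and WM repopulating cells are in panels side by side, with 1 line of points per library. In 7 of the 8 libraries 15 or 16 of the 16 points lie above 0, while in WM repopulating replicate 2 the median is -0.31.

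The members were next compared between the kinds of cell at each time. Without LPS 0 of 39 members passed in either direction, where 0.717% of all genes were higher and 0.497% lower in WM repopulating cells; limma gave 3 members higher and 1 lower at an unadjusted p under 0.05, and 1514 of all 12684 genes tested. Hspa5 was at 1227, 1322, 1344 and 1452 FPKM in WM repopulating cells and 1012, 1034 and 826 in controls, ranges that did not overlap, but its log2 fold change of 0.48 ± 0.24 had an adjusted p of 0.429. At 6 hr 0 members passed as well (background 0.213% higher and 0.110% lower), with 4 higher and 0 lower at an unadjusted p under 0.05, and 1164 of all 12684 genes.

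At 24 hr 3 members were higher in WM repopulating cells (7.69%) and 2 lower (5.13%), where 1.68% of all genes were higher and 2.29% lower. Ppp1r15a was at 486, 399, 516 and 527 FPKM in WM repopulating cells and at 274, 268, 303 and 166 in controls, so that the lowest WM repopulating library lay above the highest control (log2 fold change 0.96 ± 0.16 SE, adjusted p = 0.000929). Atf4 was at 97.2, 119, 102 and 109.9 in WM repopulating cells and 80.7, 70.6, 76.03 and 49.4 in controls, also without overlap (log2 fold change 0.64 ± 0.17 SE, adjusted p = 0.0336), and Atf6 at 17.1, 20.4, 17.3 and 15.3 in WM repopulating cells and 12.9, 11.4, 11.2 and 10.7 in controls, without overlap too (log2 fold change 0.56 ± 0.16 SE, adjusted p = 0.043). Pdia4 was at 135, 41.1, 100.1 and 99.1 in WM repopulating cells and 162, 161, 157 and 173 in controls, lower in all 4 (log2 fold change -0.91 ± 0.24 SE, adjusted p = 0.0341). Manf was at 195, 93.4, 159.7 and 202 in WM repopulating cells and 214, 232, 217 and 286 in controls (log2 fold change -0.60 ± 0.17 SE, adjusted p = 0.0478), also lower in all 4.

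Of these 5, Ppp1r15a alone passed without WM repopulating 24 hr replicate 2 (log2 fold change 1.05, adjusted p = 0.00125), and the chaperone median moved from -0.60 to -0.33. Of the other 4, Atf4 was then at 0.59 ± 0.19 (adjusted p = 0.107), Atf6 at 0.48 ± 0.17 (adjusted p = 0.142), Pdia4 at -0.56 ± 0.18 (adjusted p = 0.125) and Manf at -0.35 ± 0.13 (adjusted p = 0.176). Without WM repopulating 24 hr replicate 1 the count was 10, 2 higher and 8 lower (1.37% and 2.08% of all genes). Without WM repopulating replicate 3 or control replicates 1, 2 or 3 at 24 hr it was 2 each, and without control 24 hr replicate 4 it was 1. These counts of 2 and 1 are not set against the share of all genes. With only these 2 groups in the fit it was 2, both higher (0.812% of all genes). Scaling by median ratios gave 2 higher and 7 lower (1.41% and 2.94% of all genes), the 7 being the chaperones Pdia3, Hsp90b1, Pdia6, Sdf2l1, Canx, Manf and Pdia4. Dissociation response genes summed to 8456 to 11486 FPKM in WM repopulating cells at 24 hr and 2742 to 5017 in controls, and to 12685 to 14315 and 9202 to 9568 at 0 hr; the part of dissociation in the higher Ppp1r15a was not tested.

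The difference between the 2 kinds of cell in their response to LPS was tested as an interaction. For 6 hr 0 members passed (0.0237% of all genes higher and 0% lower), with 1 member, Asns, at an unadjusted p under 0.05 (difference 1.45 ± 0.38, adjusted p = 0.346), and 913 of all 12684 genes. For 24 hr 0 members passed (0.0158% higher and 0.0710% lower), with 3 higher and 9 lower at an unadjusted p under 0.05, and 1105 of all 12684 genes. The widest differences at 24 hr were those of Derl3 (-1.63 ± 0.48, adjusted p = 0.235), Pdia4 (-0.99 ± 0.36, adjusted p = 0.381), Calr (-0.97 ± 0.37, adjusted p = 0.412) and Sdf2l1 (-0.95 ± 0.35, adjusted p = 0.382). Without WM repopulating 24 hr replicate 2 these were -1.48 for Derl3 (adjusted p = 0.363), -0.63 for Pdia4 (adjusted p = 0.516), -0.55 for Calr (adjusted p = 0.448) and -0.63 for Sdf2l1 (adjusted p = 0.532). The smaller number of chaperones past the threshold in WM repopulating cells at 24 hr is not shown by this test to be a different response, nor is an equal response.

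Beside the promoter elements, 7 of the 8 chaperones with an ERSE or short form rose in control microglia at 24 hr (median log2 fold change of the 8, 0.96), and 4 of the 5 with a window and neither (median 0.92), where 12.1% of all genes rose. Sdf2l1, with the furthest rise, was among those with neither. Of the 5 members with an ATF4 element, Asns, Chac1 and Trib3 rose at 6 hr in both kinds of cell, Atf3 fell in both, and Herpud1 did not pass. These counts carry no test. The ERSE of Syvn1 (HRD1), the ubiquitin ligase of ER-associated degradation, stands beside log2 fold changes of -0.11 to 0.50 over the comparisons of the LPS table, and Syvn1, Ern1, Hspa13, Derl1 and Ssr1 passed in none of them with all libraries in the fit. Without WM repopulating 24 hr replicate 2, Syvn1 was higher at 24 hr than at 0 hr (0.71 ± 0.20, adjusted p = 0.0154) and than at 6 hr (0.82 ± 0.20, adjusted p = 0.00644) in WM repopulating cells. Without the control libraries that stand apart, Derl1 passed in 3 comparisons, at -0.32 and -0.38 for 6 hr against 0 hr in control and WM repopulating cells and 0.42 for 24 hr against 6 hr in controls, and Ssr1 in 1 (0.41 for 6 hr against 0 hr in WM repopulating cells).

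Other genes of the same pathways that are not members were counted from lists. Of 24 further known ATF4 targets, 17 rose and 1 fell in control microglia at 6 hr (median 0.79), where 21.4% and 21.1% of all genes rose and fell. They were led by the amino acid transporter Slc7a1 (3.11) and the transcription factor Cebpb (3.10), with Cebpg the 1 that fell (-1.07). In WM repopulating cells 19 rose and 1 fell at 6 hr (median 0.98), where 19.3% and 19.5% of all genes did. At 24 hr 10 rose in controls, led by Psat1 (1.84) of serine synthesis and the stress regulator Nupr1 (1.35), and 11 in WM repopulating cells, with 0 lower in both, where 12.1% and 10.5% of all genes rose. Of 44 further ER folding and processing genes, 11 rose (25%) and 7 fell (15.9%) at 6 hr in controls, where 21.4% and 21.1% of all genes did. At 24 hr 10 rose (22.7%) and 1 fell (2.27%), against 12.1% and 9.23% of all genes, and Stt3b (0.97), a catalytic subunit of N-glycosylation, and Fkbp2 (0.90), a prolyl isomerase, led. In WM repopulating cells 11 of the 44 rose and 9 fell at 6 hr, and at 24 hr 3 rose (6.82%) and 1 fell (2.27%), against 10.5% and 8.29% of all genes. Of 16 further degradation genes 0 rose and 2 fell in controls at 24 hr, and 2 rose and 2 fell in WM repopulating cells. Of 11 further sensor genes 3 rose and 1 fell at 24 hr in each kind of cell. In controls Eif2ak2 (PKR), a kinase induced by interferon, led those that rose (1.36), and Eif2ak1 (HRI), a kinase that senses low heme, was the 1 that fell (-0.62).

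In SVZ tissue 4 chaperones were higher after 5 days of recovery than on PLX3397, by less than 1 on the log2 scale, and neither group passed against control for any member. Against control 0 of 38 members passed on PLX3397 (0.0565% of all genes higher and 1.21% lower) and 0 in recovery (0.184% higher and 1.09% lower). At an unadjusted p under 0.05 limma gave 0 members higher and 11 lower on PLX3397, 10 of them chaperones, and 12 higher and 2 lower in recovery; 866 of all 14151 genes tested had an unadjusted p under 0.05 on PLX3397 against control and 2346 in recovery against control. With only those 2 groups in the fit 3 members were lower on PLX3397 than in control, as were 1.19% of all genes. The chaperone median on PLX3397 was -0.27, with 15 of 16 below 0, and that of all genes 0.01. This median and the unadjusted counts include control replicate 1, which stands apart. It was the highest control library for Pdia3 (200 FPKM, others 122 to 143), Pdia4 (57.4, others 38.1 to 43.9), Calr (162, others 112 to 132) and further chaperones. It was not for Canx, Hyou1, Dnajb9, Sdf2l1, Creld2 and Hspa13. Leaving out any 1 library left 0 members past the threshold for PLX3397 against control.

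Between recovery and PLX3397, 4 members were higher in recovery (10.5%) and 0 lower, where 0.290% of all genes were higher and 0.0353% lower. All 4 were chaperones, whose median over 16 was 0.42 with 16 of 16 above 0. Hspa5 was at 191, 154, 156, 152 and 140.4 FPKM on PLX3397, at 195, 239, 265, 341 and 264 in recovery and at 221, 195, 204, 212 and 184 in control. Each recovery library lay above every PLX3397 library, and the control range overlapped both (log2 fold change 0.70 ± 0.12 SE, adjusted p = 0.0171). Pdia6 was at 83.04, 70.4, 70.00, 71.3 and 71.6 on PLX3397, 89.02, 104, 109, 136 and 115 in recovery and 105, 80.2, 87.6, 96.1 and 88.3 in control, again with recovery wholly above PLX3397 (log2 fold change 0.58 ± 0.10 SE, adjusted p = 0.0185).

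Sdf2l1 was at 29.9, 27.99, 30.5, 26.8 and 27.4 on PLX3397, 29.9, 52.7, 59.3, 58.96 and 55.6 in recovery and 46.7, 33.9, 38.7, 48.9 and 34.5 in control. Recovery replicate 1 lay within the PLX3397 range and the other 4 above the control range (log2 fold change 0.79 ± 0.16 SE, adjusted p = 0.0459). Creld2 was at 43.5, 35.9, 36.8, 32.1 and 36.99 on PLX3397, at 41.5, 55.00, 64.02, 50.02 and 60.2 in recovery and at 48.1, 45.5, 48.9, 54.6 and 45.4 in control, with recovery replicate 1 inside the PLX3397 range (log2 fold change 0.53 ± 0.11 SE, adjusted p = 0.0499). Next in size among those that did not pass were Pdia3 (0.50 ± 0.11, adjusted p = 0.0815) and Dnajb11 (0.48 ± 0.10, adjusted p = 0.0614). Among stress outputs Asns was at 112 to 125 FPKM on PLX3397 and 120.0 to 164 in recovery and did not pass.

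The count of 4 was 0 with quantile normalization, 0 with a replicate block, 1 with only these 2 groups in the fit and 2 with median ratio scaling or with no variance trend. It also depended on single libraries: it was 0 without PLX3397 replicate 2, 3 or 4, 1 without recovery replicate 5, 2 without PLX3397 replicate 5 or recovery replicate 2, 3 or 4, and 7 without recovery replicate 1, where 0.325% of all genes were higher. The counts of 0, 1 and 2 are not set against the share of all genes. It was 1 without the 3 SVZ libraries that stand apart (control replicate 1 and recovery replicates 4 and 5). Against control, 2 members were higher in recovery without recovery replicate 1. The 9 microglial markers summed to less on PLX3397 and in recovery than in control, with no overlap of the 3 groups. Fewer microglia and less RNA per cell cannot be told apart in bulk tissue. The 4 erythrocyte genes listed summed to 41.8 to 57.9 FPKM on PLX3397 and to 91.3 to 336 in recovery, without overlap. The 5 astrocyte genes summed to 1452 to 1615 and 1580 to 2515, and the 2 neutrophil genes listed to medians of 0.721 and 9.26. The 3 B and plasma cell genes listed summed to 14.8 to 18.9 FPKM in control, 3.35 to 9.92 on PLX3397 and 9.42 to 15.8 in recovery. The 2 monocyte genes listed summed to 6.58 to 8.77 on PLX3397 and 3.39 to 6.19 in recovery, without overlap. Their part in the higher chaperone levels of recovery was not tested.

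**Figure D4:**
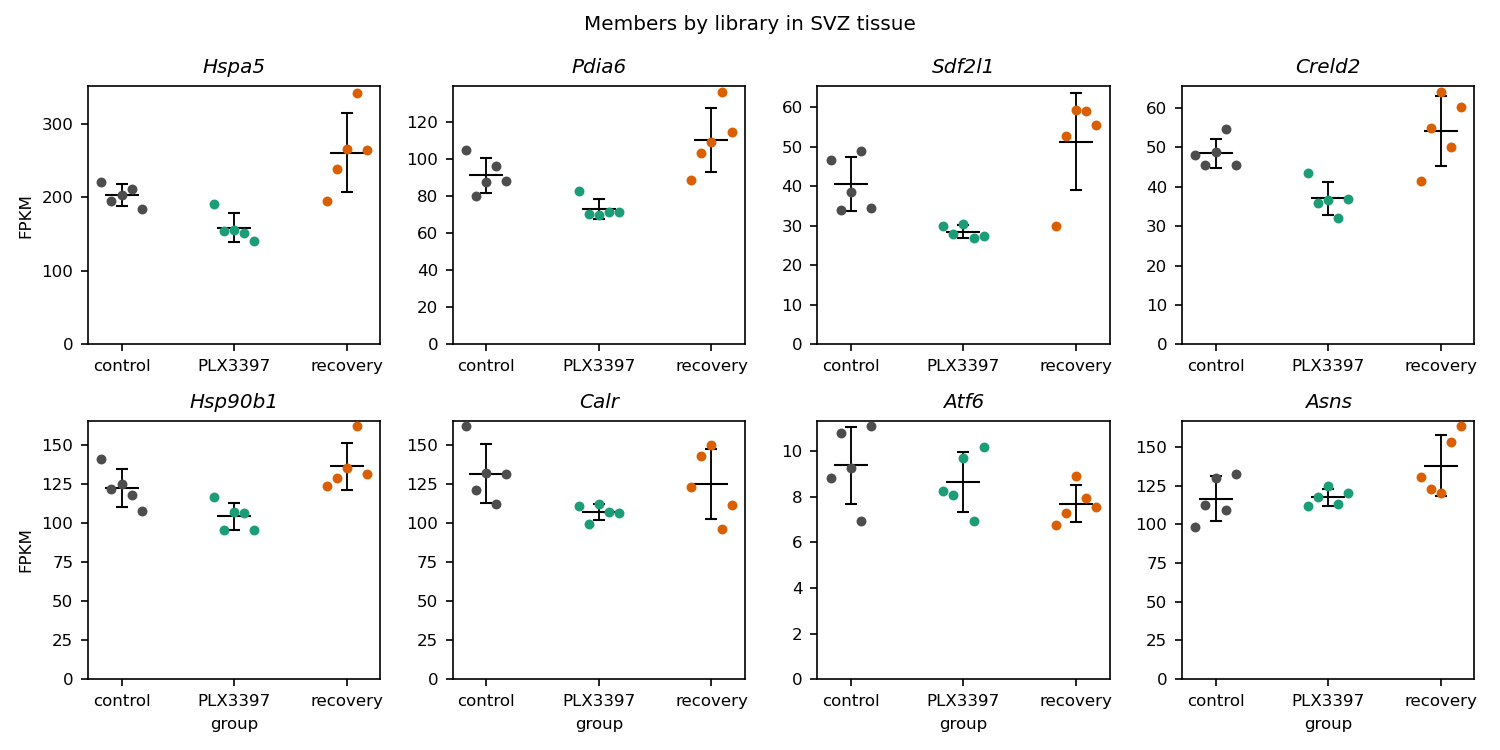
FPKM of 8 members in SVZ tissue (vertical axes, linear, starting at 0) in control mice, mice on PLX3397 and mice in recovery, with 1 point per library and bars at the mean ± SD of 5 libraries. For Hspa5 and Pdia6 the 5 recovery points lie above the 5 PLX3397 points, while for Sdf2l1 and Creld2 recovery replicate 1 lies among them.

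After GLOBAL repopulation 0 of 39 members passed against control, and 0% of all genes passed in either direction; limma gave 3 members higher and 3 lower at an unadjusted p under 0.05, and 1504 of all 16651 genes tested. Hspa5 was at 333, 298, 234 and 308 FPKM in control and 411, 418 and 575 after repopulation, ranges without overlap, with a log2 fold change of 0.67 ± 0.17 and an adjusted p of 0.305. Ppp1r15a was at 214, 231, 266 and 426 in control and 404, 337 and 454 after repopulation, which overlapped. Asns was at 6.58, 4.47, 4.14 and 3.10 in control and 2.87, 1.16 and 2.34 after repopulation, where all 3 lay below the 4 controls (adjusted p = 0.418), and Chac1 at 4.32, 1.44, 4.84 and 0.525 in control and 0.941, 0.356 and 0 after repopulation (adjusted p = 0.474). Control libraries had an estimated 2160000 to 3990000 reads and repopulation libraries 4410000 to 5100000, and 9 dissociation response genes summed to 8049 to 16333 FPKM in control and 14292 to 16983 after repopulation; neither was tested as a cause of these values.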

How the data were processed

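FPKM values per gene and library were measured by RNA sequencing in 46 libraries and used as deposited by the authors. Per the study's methods, RNA was amplified by Smart-seq2 and sequenced in pairs, reads were aligned with STAR (release 2.5) and counted with featureCounts, and values were scaled for length and depth. The protocol in GEO's labels describes another library kit and read length, and dissected cortex, hippocampus and thalamus or striatum frozen on dry ice, unlike the SVZ tissue and sorted hemisphere cells that the methods and the labels' tissue entries give. The annotation used is not given in the sources used here; the submitters' processing notes name the mm10 build. Each table was normalized on its own, so tests were made within tables. Such scaling makes each value relative to the rest of its library. No sample was pooled or imputed.

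From these values log2(FPKM + 1) was fitted with limma 3.58.1 (R 4.3.3, lmFit and eBayes with a variance trend), all groups of a table in 1 fit, on genes with at least 1 FPKM in at least 3 libraries (14151, 12684 and 16651 genes). P-values were adjusted by Benjamini-Hochberg over all genes tested in a table, with a threshold of 0.05. Replicates are separate GEO samples, and the study's methods give n as mice per group. The members and the lists of other pathway genes and markers were chosen with earlier results of these data known. Up to 10 members per comparison were named with full values, largest fold change first among those past the threshold, and of other pathway genes the furthest in each direction.

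Depth was estimated from low FPKM values, which fall on whole multiples of 1 read for 82.0% to 87.8% of low genes (within 0.02 reads) with GENCODE lengths, so it is approximate. Alternatives were a pseudocount of 0.1, no filter, no trend, median ratio and quantile scaling, a replicate block, a fold limit, only the groups compared, leaving out each library, and, chosen after seeing the data, leaving out the libraries that stand apart. Scripts were tested on simulated data. Promoters came from RefSeq (GRCm38.p6). Python 3.11.15, numpy 2.4.6, pandas 2.3.3 and matplotlib 3.10.9 were used.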

Additional observations from a re-analysis of the deposited data

Results flagged for a closer look

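In 24 of 351 sets of member values within a group of 4 or more libraries, the highest or lowest library stood further from the others than Dixon's 95% limit allows, where about 1 in 20 sets would by chance. Control microglia 24 hr replicate 4 accounted for 5 of them, with Hsp90b1 at 919 FPKM (others 624 to 652), Hyou1 at 47.3 FPKM (others 17.9 to 19.7) and Ssr1 at 61.7 FPKM (others 30.0 to 32.3) high, and Pdia6 at 409 FPKM (others 480.1 to 490.0) and Syvn1 at 10.1 FPKM (others 16.2 to 17.6) low.

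Control microglia 6 hr replicate 2 was high in Herpud1, at 1946 FPKM (others 271 to 446), and in Hspa13, at 16.8 FPKM (others 7.50 to 9.17). In control microglia 6 hr replicate 3, Sdf2l1 at 158 FPKM (others 90.9 to 97.5) and Creld2 at 142 FPKM (others 78.2 to 86.4) were high. WM repopulating 24 hr replicate 2 was low in Calr, at 96.9 FPKM (others 281 to 331). WM repopulating 0 hr replicate 1 was low in both Sdf2l1 at 211 FPKM (others 277 to 287) and Pdia3 at 597 FPKM (others 752 to 783).

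Among SVZ libraries, recovery replicate 4 had Pdia3 at 193 FPKM (others 155 to 163) as its high value and Atf4 at 8.09 FPKM (others 13.9 to 16.9) and Sec61a1 at 18.8 FPKM (others 26.0 to 28.8) as low ones. Recovery replicate 1 was low in Sdf2l1, at 29.9 FPKM (others 52.7 to 59.3). PLX3397 replicate 1 was high in Pdia4 at 40.6 FPKM (others 34.1 to 35.8) and Pdia6 at 83.0 FPKM (others 70.0 to 71.6). PLX3397 replicate 2 was low in Sel1l, the adaptor of the ligase Syvn1, at 36.1 FPKM (others 39.4 to 40.6), and PLX3397 replicate 5 in Ppp1r15a, at 8.79 FPKM (others 10.1 to 10.5). Control replicate 3 was high in Atf3, at 0.928 FPKM (others 0.327 to 0.478), and control replicate 2 low in Sec61a1, at 25.8 FPKM (others 28.9 to 30.0).

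Of the sorted GLOBAL libraries, control replicate 1 was high in Pdia4, at 81.0 FPKM (others 73.7 to 74.2), and control replicate 2 low in Atf6, at 5.89 FPKM (others 8.53 to 8.83).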

How the results depend on the processing

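Of the 69 member results past the threshold that were named with full values (up to 10 per comparison), 0 changed sign under any alternative run and 34 passed under every one; over all alternatives 1022 of their 1181 values passed and 159 did not, 31 of these under an added fold limit of 1 on the log2 scale. With that limit, counts of members were 7, 11 and 11 in control microglia (6 hr against 0 hr, 24 hr against 0 hr and 24 hr against 6 hr), 5, 2 and 4 in WM repopulating cells, and 0 both for WM repopulating against control microglia at 24 hr and for SVZ recovery against PLX3397. The counts in this section are not set against the share of all genes in the same setting, so they show only how far the calls move. SVZ recovery against PLX3397 (4) became 2 with no trend, 2 with median ratio scaling, 0 with quantile normalization, 1 with only the groups compared and 1 without the libraries that stand apart. WM repopulating against control microglia at 24 hr (5) became 3 with no trend, 9 with median ratio scaling, 2 with only the groups compared and 3 without the libraries that stand apart, the 3 being Ppp1r15a, Dnajb9 and Atf4, all higher. With only the groups compared, SVZ PLX3397 against control gave 3, all lower, WM repopulating against control microglia at 0 hr gave 1, and WM repopulating 6 hr against 0 hr gave 26. The cause of these moves was not tested.

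Leaving out 1 library gave 0 to 7 members for SVZ recovery against PLX3397, 0 to 2 for SVZ recovery against control, 1 to 10 for WM repopulating against control microglia at 24 hr, 8 to 20 for WM repopulating 24 hr against 0 hr and 11 to 24 against 6 hr, 13 to 15 for WM repopulating 6 hr against 0 hr, and 14 to 17, 15 to 18 and 23 to 29 for the 3 comparisons of control microglia. GLOBAL repopulation and both tests of a different response gave 0 throughout.

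Replicate numbers were checked as a pairing. Deviations of same-numbered libraries correlated at -0.155 to 0.486 in SVZ, -0.190 to 0.266 in the LPS table and 0.056 to 0.137 in GLOBAL. Libraries with other numbers correlated at -0.480 to 0.289, -0.276 to 0.312 and -0.141 to 0.091. The ranges overlapped in each table, so the check does not settle whether same-numbered libraries were handled together. With a replicate block, SVZ recovery against PLX3397 gave 0 members and WM repopulating against control microglia at 24 hr gave 3. Scaling moved the median of all genes by less than 0.1 on the log2 scale. At these depths some low members rest on few reads in part of the libraries. In the LPS table the estimates were 0 to 146.5 for Chac1, 0 to 49.8 for Derl3, 5.32 to 92.3 for Trib3 and 22.9 to 118 for Ern1. In SVZ tissue Atf3 had 2.82 to 15.1.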
